A study of Mus musculus with 8 samples.

Results

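The immediate early genes described here are Fos, Fosb, Jun, Junb, Egr1, Egr2, Arc, Npas4, Nr4a1 and Dusp1, measured in the cortex of newborn mouse pups. They were chosen by name: every non-control probe whose gene name in the array files was one of these 10 symbols. All 10 were found, each with 1 probe, among 55655 probes in all. After a filter on dim probes 9 of the 10 entered the test over 19751 genes, and Junb did not. The samples were 8 male pups of the inbred strain C57BL/6NCr at postnatal day 1.5, 4 labelled control and 4 labelled ischemia, each on 1 one-colour Agilent array. In the ischemia group, clips had closed the uterine arteries of the anesthetised mother for 14 min at E16.5, late in gestation, so the pups were sampled days after the insult. Whether the mothers of control pups had surgery and which pups were littermates is not given in the labels, so p-values measure the spread between these 8 pups.

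Immediate early genes are transcribed within minutes of a stimulus, from factors already bound at their promoters, and their messages are short-lived. Calcium entry, growth factors and cell stress reach them through the MAP kinases and calcium-dependent kinases, which act on serum response factor (SRF) with its ETS partners and on CREB. In cortical neurons they are widely used as a record of recent synaptic activity. Most of the 10 encode transcription factors that switch on a second wave of genes, while Arc acts at synapses and Dusp1 switches the MAP kinases off again.

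The upstream sequences of the members are shown for the sites through which these signals act. RefSeq promoter windows (GRCm38.p6, 250 bases before to 50 after a transcript start) were matched for 8 of the 10 genes in 12 windows, 5 of them from Egr2; Egr1 and Arc were not matched. The core TGACG of the cyclic AMP response element (CRE), to which CREB binds, was found on either strand in 7 of these 8 genes, Jun being the exception, and in 20.8% of all 32851 windows. The full CRE TGACGTCA, which contains the core on both strands, was present in Dusp1 alone among the 8, and in 1.79% of all windows. The CArG box bound by SRF was found in Egr2 alone, at 2 distinct sites, only 1 of them shared by overlapping windows. Of all windows, 1.63% hold it. The EGR site GCGNGGGCG stood in Fosb and Nr4a1 (5.55% of all windows). The TATA sequence TATAAA began 33 bases before the start in Fos and at the start itself in Junb (13.6% of all windows hold it). The AP-1 site TGANTCA, the target of FOS and JUN proteins, was in 0 of the 12 windows and in 7.81% of all. A match is a string of letters and not a site shown to be bound, and the absence of a match covers this window only. The stretches below read 5′ to 3′ on the strand of the gene, with the matched motif in capitals (in Nr4a1 the core lies on the other strand and reads CGTCA): the CRE core in Fos (chr12:85473812-85473840, plus strand), Fosb (chr7:19310089-19310117, minus strand), Npas4 (chr19:4990124-4990152, minus strand) and Nr4a1 (chr15:101266794-101266822, plus strand), the full CRE in Dusp1 (chr17:26508597-26508626, minus strand), and the CArG box in Egr2 (chr10:67537787-67537816, plus strand).
Fos: agttccgcccagTGACGtaggaagtccat
Fosb: tggagttgcgggTGACGcaagcgcggggg
Npas4: gacgtcacgggaTGACGtcggaagtctgg
Nr4a1: cccctctccatgCGTCAcggagcgcttaa
Dusp1: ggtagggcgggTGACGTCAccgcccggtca
Egr2: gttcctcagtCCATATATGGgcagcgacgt
The matched motif begins 66 bases before the start in Fos, 60 in Fosb, 169 in Npas4, 40 in Nr4a1, 143 in Dusp1 and, in 1 of the Egr2 windows, 72.

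No immediate early gene passed the test between the ischemia and control pups. Of the 9 tested, 5 lay above 0 and 4 below, with a median difference of 0.038 on the log2 scale against -0.023 over all 19751 genes. With limma and Benjamini-Hochberg adjustment over all genes, adjusted p-values of the members ran from 0.344 to 0.958, and 0 passed the threshold of 0.05, where 0.00506% of all genes did. The 1 feature called was no member, carried no gene symbol in the files, and lay at -0.73 (SE 0.062, limma adjusted p = 0.0337). At an unadjusted p under 0.05 there was 1 member, Dusp1, higher in ischemia, or 1 of 9 against 3.25% of all genes called higher and 7.65% called lower at that level. The groups did not overlap in 1 tested member, again Dusp1, where 6.55% of all genes had groups apart, 2.27% wholly above the controls and 4.28% wholly below. The moderated 95% interval lay within 1 log2 unit of 0 for 9 of 9 tested members, and included 0 for 8.

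**Figure D1:**
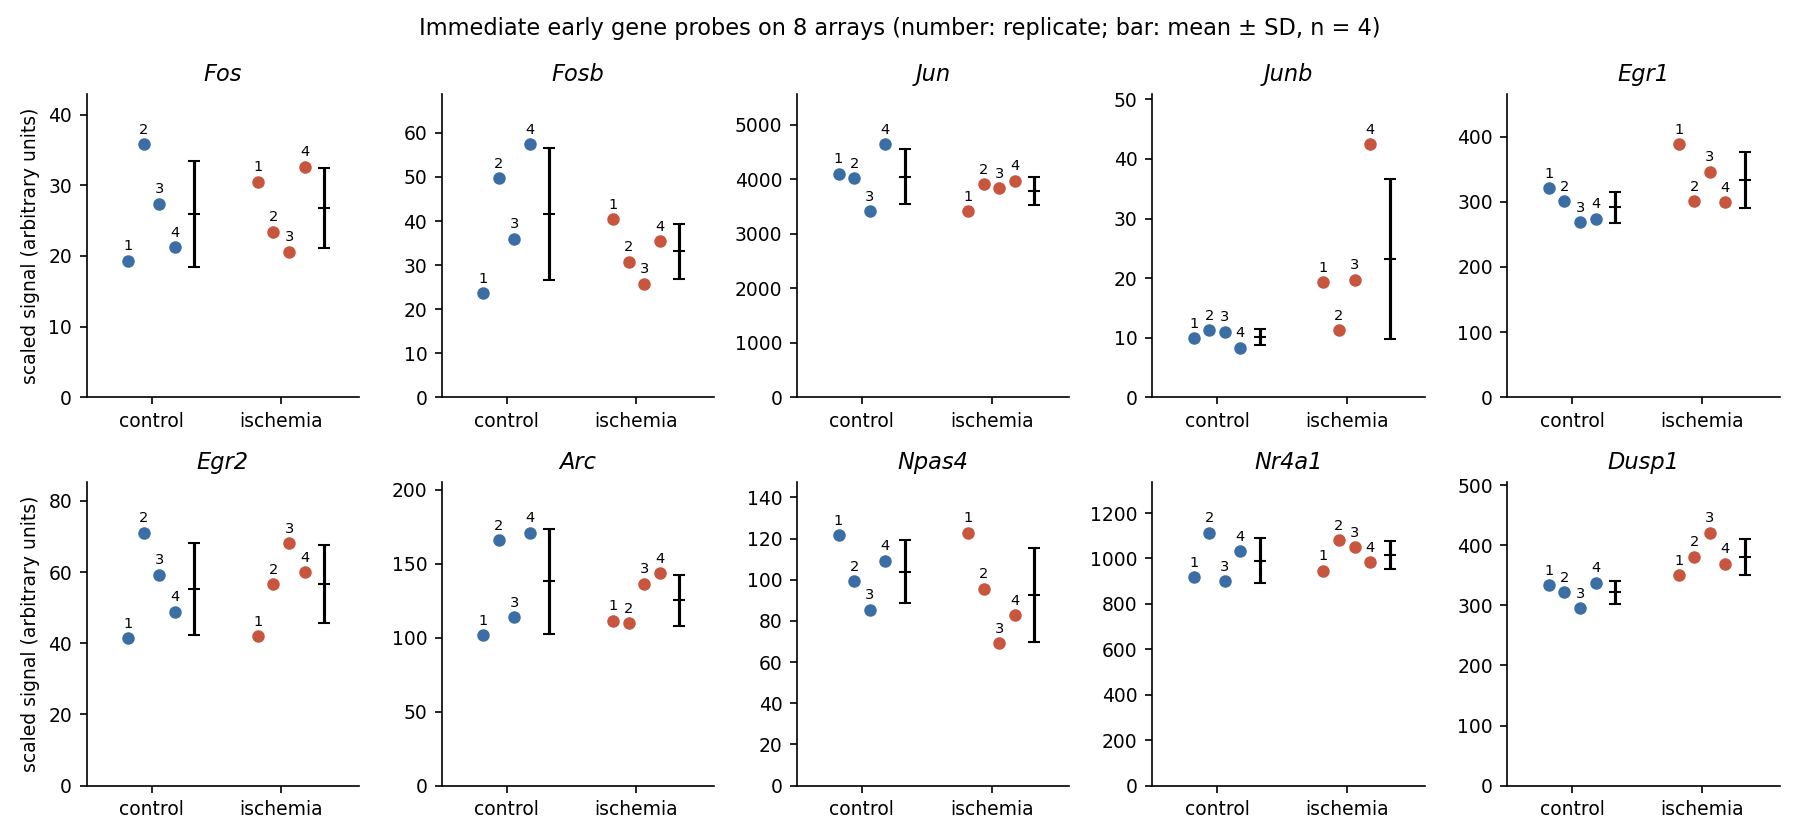
Scaled signal of the 10 immediate early gene probes (y axis, arbitrary units, each panel from 0) in 4 control and 4 ischemia arrays; numbers are replicates and bars the mean ± SD, n = 4. Dusp1 is the tested gene whose groups do not overlap, with controls from 295 to 337 and ischemia arrays from 349.6 to 421.

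Values below are scaled signals, the processed signal of a probe brought to a common 75th percentile of the array, in arbitrary units. They compare arrays for 1 probe and do not compare genes, since probes differ in how strongly they bind. Differences are ischemia minus control on the log2 scale, with SE from limma and 4 arrays per group. In whole cortex, fewer cells that express a gene and less RNA per cell cannot be told apart.

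Dusp1 encodes a nuclear phosphatase that inactivates the MAP kinases, and is induced both as an immediate early gene and by glucocorticoids. Its probe (mm9 chromosome 17, with an 11-base span from 26642526 to 26642536 given in the files) read 333, 322, 295 and 337 in control replicates 1 to 4 and 349.6, 381, 421 and 369 in ischemia replicates 1 to 4. Each ischemia array lay above the highest control. The group means were 322 ± 19.2 (SD, n = 4) and 380.0 ± 30.1 (SD, n = 4). The difference was 0.24 (SE 0.076, limma adjusted p = 0.344), a 1.18-fold level with a 95% interval from 1.04 to 1.33, and did not pass over all genes. It ranged from 0.19 to 0.28 with 1 array left out in turn and was 0.32 without ischemia replicates 1 and 4.

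Markers of neighbouring tissue were also uneven between the groups. Of 12 meningeal markers 11 were tested, 9 of them above 0, and their mean lay between -0.20 and 0.22 log2 units from the control mean in the controls and between -0.19 and 1.49 in the ischemia arrays, highest in replicate 1. Of 10 choroid plexus markers 6 were tested (Kl, Clic6, Kcnj13 and Prlr did not pass the filter), with a mean from -0.089 to 0.059 in controls and from -0.53 to 3.17 in ischemia, highest in replicate 4, where Ttr, the transthyretin gene, read 38748 against 30.2 to 38.6 in controls. The mean of 9 endothelial markers lay between -0.065 and 0.057 in controls and between 0.053 and 0.36 in ischemia. It took in 6 genes above 0 and 3 below, with a median difference of 0.057. Slco1a4 (1.09) and Ly6c1 (0.84) were the highest and Kdr (-0.31) the lowest. The mean of 8 microglial markers lay between -0.071 and 0.094 in controls and between 0.078 and 0.17 in ischemia. Here 5 genes lay above 0, with C1qa highest at 0.42, and 3 below, with P2ry12 lowest at -0.30. Pericyte and smooth muscle markers ran the other way: 6 of 7 were tested, 5 of them below 0, and their mean lay between -0.026 and 0.066 in controls and between -0.14 and -0.052 in ischemia, with no overlap. Of 7 astrocyte markers 5 lay above 0, with a mean from -0.14 to 0.17 in controls and from 0.0069 to 0.21 in ischemia. The mean of 5 tested red cell markers ranged from -0.41 to 0.33 in controls and from -0.83 to 0.014 in ischemia. Of the cortical excitatory neuron markers 10 of 10 were tested, and their mean lay between -0.056 and 0.045 in controls and between -0.093 and 0.13 in ischemia. Each group filled its own row of the same slide, so row and group cannot be told apart. The part of these markers in the Dusp1 difference was not tested.

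**Figure D2:**
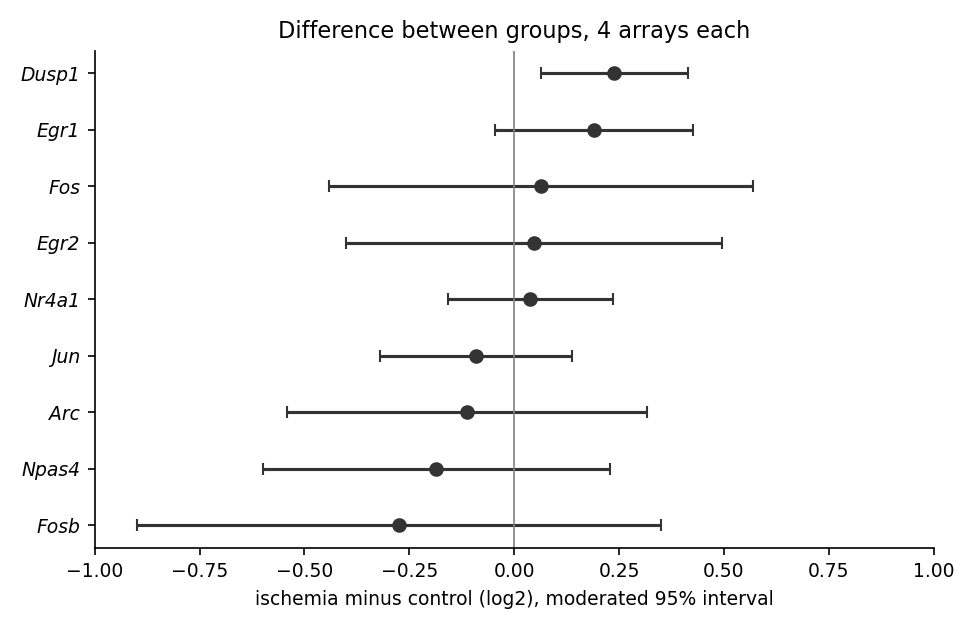
Difference between the groups (x axis, ischemia minus control on the log2 scale) for the 9 tested immediate early genes; points are limma estimates and bars moderated 95% intervals, 4 arrays per group. The intervals of 8 genes include 0, and that of Dusp1 does not, before any adjustment.

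The FOS and JUN proteins pair to form the transcription factor AP-1. Jun, a component of most AP-1 dimers, had a bright probe (mm9 chromosome 4, 94716928 to 94716987) that read 4101, 4023, 3415 and 4645 in the controls and 3417, 3909.8, 3830.4 and 3972 in ischemia. All ischemia values lay inside the range of the controls. The difference was -0.091 (SE 0.099, limma adjusted p = 0.796), with a fold interval from 0.802 to 1.10. It was -0.17 without control replicate 3 and -0.022 without control replicate 4.

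Fos, the prototype of the class and a common marker of active neurons, was close to background. Its probe (mm9 chromosome 12, 86817900 to 86817959) is spotted 10 times on each array, and was well above background on 2 of 4 control and 2 of 4 ischemia arrays, which just met the filter of 4 arrays. The array means were 19.3, 35.8, 27.4 and 21.2 in the controls and 30.5, 23.4, 20.6 and 32.6 in ischemia. The highest and the lowest of the 8 were both controls. The difference was 0.064 (SE 0.22, adjusted p = 0.947), with a fold interval from 0.736 to 1.48. Its sign was not stable: it ran from -0.064 to 0.23 with 1 array left out in turn and was -0.042 with normexp background correction and -0.20 without ischemia replicates 1 and 4.

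The 10 Fos spots show how far a single dim spot can be trusted. Within an array the SD of log2 spot signals was between 0.095 and 0.65, and the SE of the array mean between 0.034 and 0.21. In control replicate 4, where the SD was highest, the spots ran from 8.33 to 32.3. The software marked 2 spots of control replicate 3 and 1 of ischemia replicate 3 as outliers, and these were left out. The 8 array means had an SD of 0.33, larger than the SE over spots in any array. That SE covers the spread within an array only. Each pup had 1 array, so differences between pups and between arrays cannot be told apart, here or for the other members. Over probes with 10 spots, the median SD between spots was 0.31 at scaled signals from 20 to 50, 0.17 from 50 to 100, 0.099 from 100 to 500 and 0.060 from 500 to 5000. The other 9 members had 1 spot per array.

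**Figure D3:**
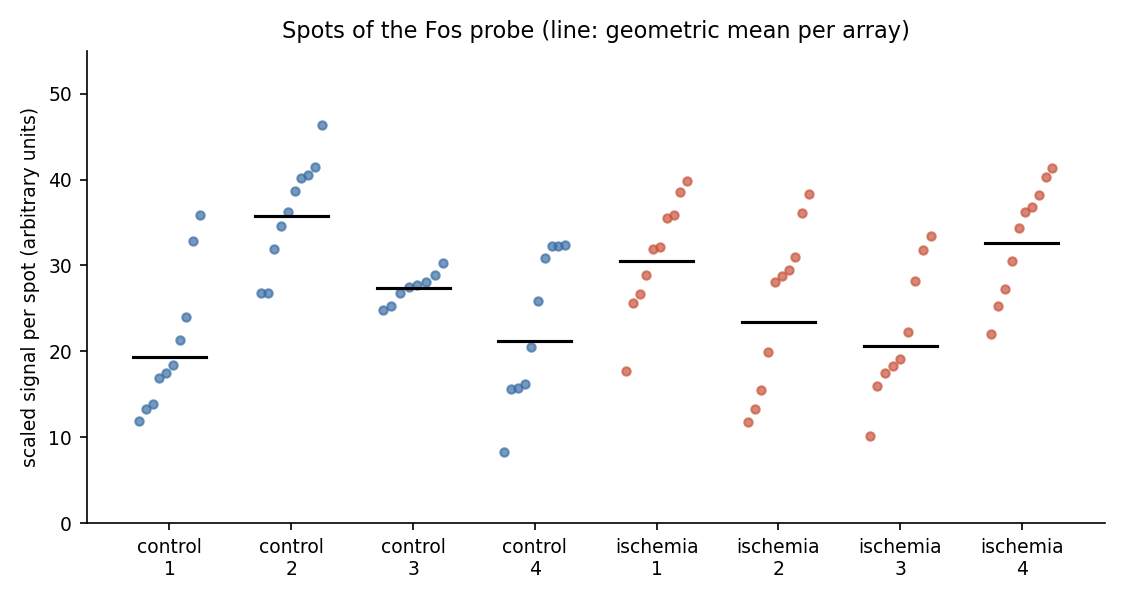
Scaled signal of each used spot of the Fos probe (y axis, arbitrary units) on the 4 control and 4 ischemia arrays, with the geometric mean per array as a line. Spots of control replicate 4 spread from 8.33 to 32.3, and the array means of both groups lie between 19.3 and 35.8.

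Fosb, whose splice variant deltaFosB accumulates in chronically stimulated neurons, was also dim. Its probe (mm9 chromosome 7, 19888168 to 19888227) passed the background flag on 3 control and 2 ischemia arrays and read 23.6, 49.8, 35.9 and 57.5 in the controls and 40.4, 30.8, 25.8 and 35.4 in ischemia. The controls spanned the ischemia values on both sides. The difference was -0.27 (SE 0.27, adjusted p = 0.774), from -0.52 without control replicate 1 to -0.093 without control replicate 4. Its pooled SD within groups, 0.45, exceeded that of 94.5% of all tested genes. Repeated spots of that brightness had a median SD of 0.31.

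Junb, an AP-1 subunit that often opposes Jun, did not enter the test. Its probe (mm9 chromosome 8, 87501881 to 87501940) cleared background on 1 array, ischemia replicate 4, and on 0 of 4 controls. The readings were 9.93, 11.2, 11.02 and 8.30 in the controls and 19.3, 11.3, 19.7 and 42.5 in ischemia. All 4 ischemia readings lay above the controls, the closest of them by 11.3 against 11.2, yet 7 of the 8 readings were not well above background. The lowest signal called well above background lay between 21.9 and 27.1 on the control arrays, higher than the ischemia mean on the log2 scale, so no fold can be given. The array with the single detected value, ischemia replicate 4, is the one with the high choroid plexus transcripts, whose part in it was not tested.

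Egr1 and Egr2 encode zinc finger factors of the EGR family. Egr1 follows synaptic activity and is well expressed in the cortex, and Egr2 also directs hindbrain segmentation and peripheral myelination. The Egr1 probe (mm9 chromosome 18, 35024395 to 35024454) read 321, 301, 269 and 274 in the controls and 389, 301, 346 and 299 in ischemia. Of the 4 ischemia arrays 2 lay above all controls and 2 among them. The difference was 0.19 (SE 0.10, adjusted p = 0.548), with a fold interval from 0.969 to 1.34, and was 0.115 without ischemia replicate 1. That array also had the highest meningeal mean, 1.49. Ischemia replicate 4, with the next highest meningeal mean at 0.73, had the Egr1 reading of 299. The part of meningeal markers in the Egr1 values was not tested.

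The Egr2 probe (mm9 chromosome 10, 67004798 to 67004857) read 41.5, 71.1, 59.3 and 48.9 in the controls and 42.0, 56.6, 68.1 and 60.002 in ischemia. The groups covered the same range. The difference was 0.046 (SE 0.20, adjusted p = 0.958), and its sign turned with 1 array left out (range -0.081 to 0.18).

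Nr4a1, an orphan nuclear receptor also called Nur77, had the narrowest range of the members. Its probe (mm9 chromosome 15, 101105071 to 101105130) read 917, 1114, 899.8 and 1033 in the controls and 946, 1079.8, 1049.9 and 983 in ischemia. The highest of the 8 arrays was 1.24 times the lowest. The difference was 0.038 (SE 0.086, adjusted p = 0.914, fold interval 0.896 to 1.18), and ran from -0.0068 to 0.096 with 1 array left out.

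Arc and Npas4 are the members most tied to neurons: Arc acts at synapses, where it promotes the removal of AMPA receptors, and Npas4 is a transcription factor induced by calcium entry. The Arc probe (mm9 chromosome 15, 74499592 to 74499651) read 102, 166, 114 and 171 in the controls and 111, 109.7, 136 and 143 in ischemia. Control replicates 2 and 4 were the highest of the 8 and control replicate 1 the lowest. The difference was -0.11 (SE 0.19, adjusted p = 0.873), -0.25 without control replicate 1 and 0.0022 without control replicate 4.

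The Npas4 probe (mm9 chromosome 19, 4984356 to 4984415) read 122, 99.3, 85.4 and 109.3 in the controls and 123, 95.7, 69.3 and 82.7 in ischemia. Ischemia replicate 1 was the highest of the 8 arrays, and ischemia replicates 3 and 4 were the lowest. The difference was -0.19 (SE 0.18, adjusted p = 0.766), -0.33 without ischemia replicate 1 and -0.057 without ischemia replicate 3. The pooled SD within groups was 0.30 for Arc and 0.29 for Npas4, above 85.7% and 84.5% of all genes, while repeated spots had a median SD of 0.099 between 100 and 500 units and 0.17 between 50 and 100. For Dusp1 it was 0.10 and for Nr4a1 0.12, below the 0.14 of the median gene.

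After adjustment, no pair of tested members was shown to vary together from pup to pup. With 8 arrays this does not show that the members vary independently. Across the 8 arrays, 36 pairs of the 9 tested members were correlated, with 22 coefficients above 0 and 14 below and a median Pearson r of 0.12. After each group was centred on its own mean the median was 0.12. With exact two-sided permutation tests 1 pair had an unadjusted p under 0.05, and 0 passed Benjamini-Hochberg adjustment over the 36 pairs by Pearson or by Spearman. After centring, a single pair could not have passed, since the 576 permutations within groups allow it an adjusted p of 0.0625 at best. All pairs share the same arrays and the same scaling factor for each array.

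The strongest relation was an opposite one, between Egr2 and Npas4. Pearson r was -0.815 (exact permutation p = 0.0156, adjusted p = 0.561) and Spearman rho -0.738 (exact permutation p = 0.0458, adjusted p = 0.864). The arrays of replicate 1 in both groups had the lowest Egr2 and the highest Npas4 values, and without these 2 arrays r was -0.548. Centred on group means, r was -0.840 (exact permutation p = 0.0208, adjusted p = 0.75). On the uncentred values the highest positive coefficient was that of Fosb and Arc, at r = 0.711 (exact permutation p = 0.0538, adjusted p = 0.801) and rho = 0.714 (exact permutation p = 0.0576, adjusted p = 0.864). Without control replicates 1 and 4, the arrays farthest from the Fosb median, r was 0.366. Leaving these out narrows the range of Fosb, so the drop does not show that the relation rested on them. With quantile normalization r was 0.761 (exact permutation p = 0.0307, adjusted p = 0.553). Fos and Fosb, which share most of their known regulators, gave r = 0.491 (exact permutation p = 0.216, adjusted p = 0.801) and rho = 0.571 (exact permutation p = 0.151, adjusted p = 0.864), with 0.058 for r without control replicates 1 and 2. The drops for this pair and for Egr2 and Npas4 carry the same limit. There too the arrays left out were those farthest from the median, of Fos and of Egr2.

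**Figure D4:**
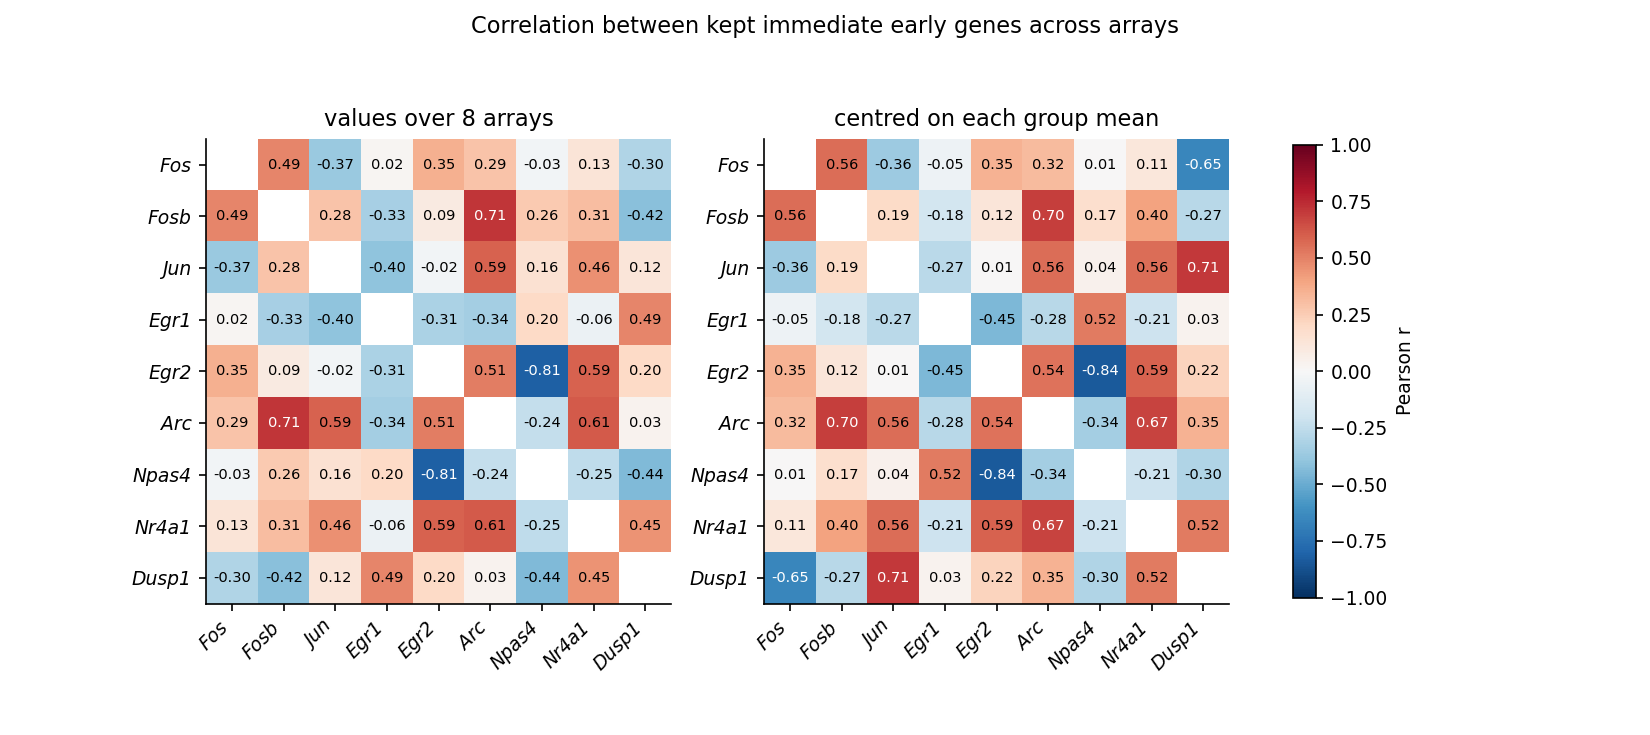
Pearson r between the 9 tested immediate early genes over 8 arrays, left from the values and right after centring on each group mean; red is positive and blue negative. Coefficients of both signs appear, on the left from -0.81 for Egr2 and Npas4 to 0.71 for Fosb and Arc.

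The genes whose pattern was nearest to Fos and Egr1 lay outside the list. The members are few among the 19750 genes ranked, so this says little of how the members relate to each other. On values centred on group means, the genes most like Fos over the 8 arrays were Ric3 (r = 0.978), Churc1 (r = 0.972), Gm15432 (r = 0.965), Naxe (r = 0.965) and Sdhaf3 (r = 0.963). The closest member to Fos, Fosb, ranked 2550 of 19750 genes, and Dusp1 ranked 18767. For Egr1 the closest genes were Gorasp1 (r = 0.978), Svopl (r = 0.964), Zfp207 (r = 0.962), Rnf114 (r = 0.956) and Zfp810 (r = 0.954). Among all genes 2.19% had r above 0.8 with Fos and 1.32% with Egr1, a description over 8 arrays that share their scaling. The coefficients given are the highest picked from 19750 genes, and no chance level was computed for them. The Fos probe was also close to background.

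Further members of the same gene families did not pass either. Of 10 such genes 7 were tested, with 4 above 0 and 3 below and a median of 0.023; limma called 0, and 1 had an unadjusted p under 0.05, where 10.9% of all genes did. That gene was Dusp2, a nuclear phosphatase of the Dusp1 family, which lay at -0.19 (SE 0.081, adjusted p = 0.452), opposite in sign to Dusp1. It read 1065 to 1139 in the controls and 899 to 1120.2 in ischemia, with ischemia replicate 4 inside the control range. Its relative Dusp4 lay at 0.023. The orphan receptor genes Nr4a2 and Nr4a3 lay at 0.17 and -0.040, the AP-1 genes Fosl2 and Jund at 0.045 and 0.086, and Egr4 at -0.18. With 1 array left out Nr4a2 ranged from 0.086 (without ischemia replicate 4) to 0.28 (without ischemia replicate 2), and Jund was 0.051 without control replicate 1. Signs turned under at least 1 alternative for Fosl2, Egr4, Nr4a3 and Dusp4. Fosl1, Egr3 and Dusp5 were well above background on 0 of 8 arrays.

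No other immediate early regulator passed the test. Of 15 further transcription factors and corepressors 14 were tested, 11 above 0 and 3 below, with a median of 0.069; limma called 0, and 3 had an unadjusted p under 0.05, all higher, against 3.25% of all genes. Per1, a clock gene that also answers to CREB and to glucocorticoids, read 1845 to 2189 in the controls and 2131 to 2848 in ischemia, a difference of 0.37 (SE 0.10, adjusted p = 0.294). Ischemia replicate 4 was the array inside the control range. Maff, a small MAF factor, lay at 0.39 (SE 0.14, adjusted p = 0.382), and at 0.17 with normexp. Csrnp1, a nuclear protein gene named here because it was the remaining one under that level, lay at 0.23 (SE 0.091, adjusted p = 0.422). Klf10, induced by TGF-beta, lay at -0.27 and the clock repressor Bhlhe40 at -0.10. Atf3, a stress-induced partner of AP-1, was well above background on 0 of 8 arrays.

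Among effectors and feedback inhibitors, 20 of 22 genes were tested, 10 above 0 and 10 below, with a median of -0.0085. Limma called 0, and 2 had an unadjusted p under 0.05, both lower, against 7.65% of all genes. Spry4, an inhibitor of receptor tyrosine kinase signalling to the MAP kinases, read 51.1, 43.1, 45.5 and 48.8 in the controls and 31.6, 35.9, 37.5 and 36.0 in ischemia. The groups did not overlap, and the difference was -0.42 (SE 0.080, adjusted p = 0.221), or -0.22 with normexp. Gadd45b, an early gene of DNA repair and demethylation, read 193, 209.6, 223 and 206 in the controls and 172, 166, 162 and 183 in ischemia. Its groups did not overlap either, at -0.28 (SE 0.067, adjusted p = 0.243). Of all genes, 4.28% had ischemia values wholly below the controls. Trib1 and Zfp36l1 had the smallest p of the genes above 0, at 0.13 and 0.094. Trib1 was 0.043 without ischemia replicate 3, and Zfp36l1 was 0.056 without ischemia replicate 2. The prostaglandin synthase gene Ptgs2 and Zfp36, whose product destabilises messages, were well above background on 0 of 8 arrays.

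No gene of the second wave in neurons passed. All 12 late response genes were tested, 6 above 0 and 6 below, with a median of 0.018; limma called 0, and 1 had an unadjusted p under 0.05, where 10.9% of all genes did. Nptx2, a secreted pentraxin that gathers AMPA receptors at synapses, read 62.3, 71.8, 75.2 and 80.6 in the controls and 94.0, 102, 98.8 and 81.6 in ischemia. The lowest ischemia value lay just above the highest control, where 2.27% of all genes had ischemia values wholly above the controls. The difference was 0.38 (SE 0.10, adjusted p = 0.282), or 0.21 with normexp. Nrn1 lay at 0.084, Gpr3 at -0.19 and Rasgrp1 at -0.077. With 1 array left out Nrn1 ranged from 0.042 (without ischemia replicate 4) to 0.15 (without control replicate 4), and Gpr3 was -0.12 without ischemia replicate 3.

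The kinases and factors upstream of the members centred on 0. Of 32 genes, all tested, 15 lay above 0 and 17 below, with a median of -0.0059; limma called 0, and 2 had an unadjusted p under 0.05, both lower, where 7.65% of all genes were lower at that level. Elk4, an ETS partner of SRF, lay at -0.32 (SE 0.11, adjusted p = 0.383), or -0.21 without control replicate 3, and Rps6ka2, a ribosomal S6 kinase activated by MAP kinases, at -0.19 (SE 0.073, adjusted p = 0.412). The SRF coactivator gene Mrtfb lay at 0.14, 0.088 without ischemia replicate 3 and -0.061 over all its kept probes.

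Targets of the glucocorticoid receptor, a list that holds Per1 as well and to which Dusp1 is related, did not pass one by one. All 15 lay above 0, where 43.0% of all genes did, with a median of 0.22. Several were close to 0: Fkbp5 at 0.0029, Errfi1 at 0.024, Zbtb16 at 0.046, Tsc22d3 at 0.068 and Sgk1 at 0.083. Limma called 0 of the 15, and 6 had an unadjusted p under 0.05, all higher, where 3.25% of all genes were. As deviations from the control mean, the average of the 15 stood at 0.44, 0.57, 0.34 and 0.12 in ischemia replicates 1 to 4. In the controls it stood between -0.017 and 0.039. The mean of the endothelial markers, which were of mixed sign, stood in the same order over those arrays, at 0.28, 0.36, 0.13 and 0.053. That of the oligodendrocyte markers was 0.19, 0.24, -0.0085 and -0.029. The part of both marker sets in the list's level was not tested. Hif3a, a hypoxia-inducible factor gene named after its value was seen, lay at 1.51 (SE 0.40, adjusted p = 0.278). Its reading in ischemia replicate 4, 132, lay inside the control range of 90.8 to 137. The mean difference of the 15 genes was 0.37, and 0.17 over the 13 without Hif3a and Sult1a1. The sulfotransferase gene Sult1a1 lay at 1.74 (SE 0.33, adjusted p = 0.221; 1.10 with normexp) and Nfkbia, the inhibitor of NF-kappaB, at 0.22 (SE 0.053, adjusted p = 0.248). The level of this list was known from earlier results of these data, so its direction is not independent evidence.

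**Figure D5:**
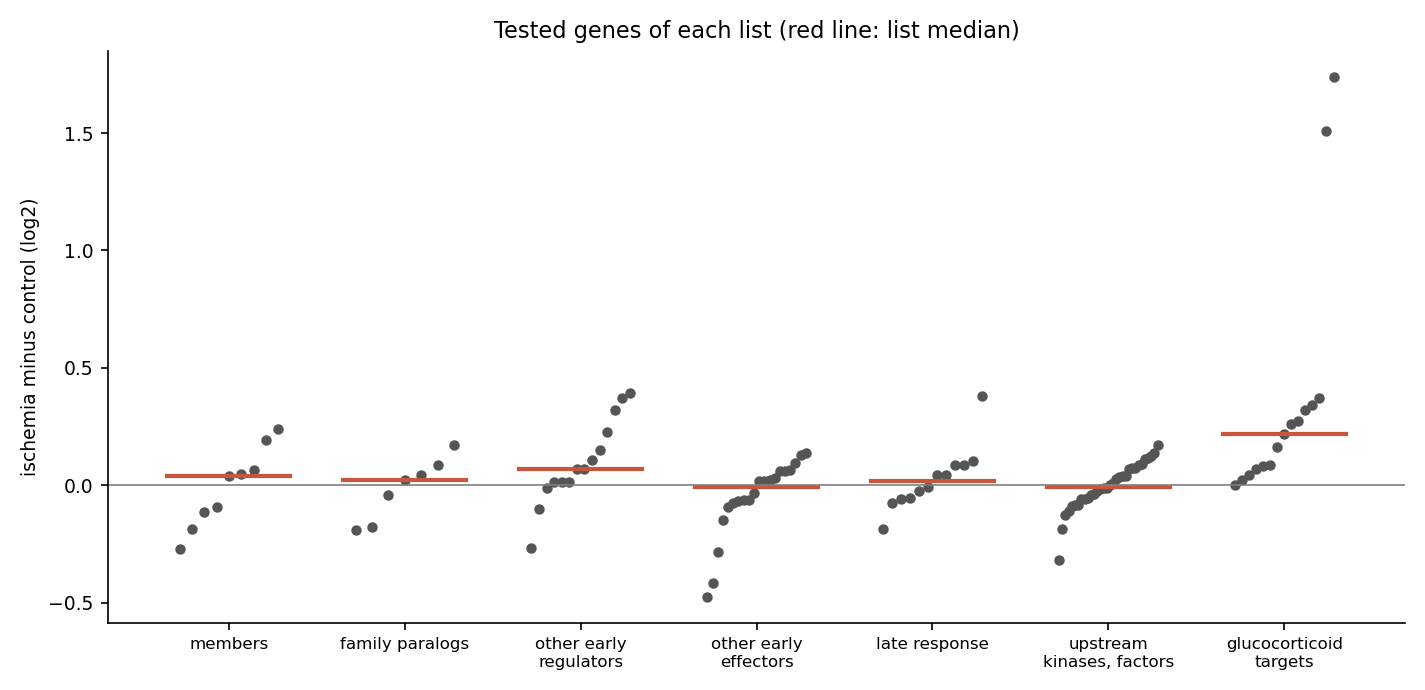
Difference between the groups (y axis, ischemia minus control on the log2 scale) for each tested gene of 7 lists; points are genes in order and red lines list medians. Medians lie between -0.0085 and 0.069 for the lists of early, late and upstream genes and at 0.22 for glucocorticoid targets.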

How the data were processed

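Total RNA (50 ng per sample, per the labels) from 4 control and 4 ischemia cortices was labelled with Cy3. The authors deposited spot intensity values read with Agilent Feature Extraction 10.7.3.1, per the file headers: the processed signal, corrected for background by the software, and flags per spot. The authors' deposited value table holds a ratio: set against the scanner values, each column was that array's processed signal over a single constant. It served only as an alternative. Flagged outlier spots were left out, log2 signals of repeated spots averaged and the log2 of each array's 75th percentile (305.6 to 393.3) subtracted. A probe counted as well above background on an array when at least 0.5 of its spots were, and was kept with 4 of 8 such arrays (27131 probes). The brightest kept probe stood for a gene. Between 47.6% and 51.7% of spots were well above background and 0 saturated. The number of arrays limits the precision.

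Groups were compared with limma 3.58.1 in R 4.3.3, tested on simulated data first, with Benjamini-Hochberg adjustment over 19751 genes. Genes were named through RefSeq tables of GRCm38.p6; probe positions are mm9, and their place in exons or UTRs was not analysed here. Correlations had exact permutation tests over 40320 pairings, or 576 within groups. Motifs were searched on both strands. Members and lists were chosen with earlier results of these data known. Named were all members and family genes, in other lists the 2 genes with the smallest p in each direction, and 5 genes most like Fos and Egr1, of which 1 list gene is not reported here; Ttr was chosen after its value was seen. Tried as alternatives were normexp, quantile and median scaling, stricter and no filters, the mean over probes, a trended and robust variance, array weights, a replicate block, the authors' table and leaving arrays out.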

Additional observations from a re-analysis of the deposited data

Results flagged for a closer look

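Dixon's ratio was computed in 96 group-by-gene sets of 4 arrays, from 48 genes (the members, the genes the naming rule gives, and Csrnp1, Ttr and Hif3a), to find any array standing apart from the rest of its group. It picked out 0 sets. About 4.8 would be picked by chance if the sets were independent. The result does not show that no array stands apart, since the ratio has little power with 4 values. Ttr was among the genes checked and was not picked out, although it read 38748 in ischemia replicate 4, far above the rest of its group. The other choroid plexus markers were not among the genes checked.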

How the results depend on the processing

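Of 34 tested genes named by the rule, 34 stayed short of the threshold under all of up to 19 alternatives, and 23 kept their sign throughout; Dusp1 ranged from 0.19 to 0.32 (limma adjusted p from 0.255 to 0.720). Over all genes, 0 were called higher and 1 lower. With a trended and robust variance 2 were called higher and 18 lower, none of them a named gene. The lower call was lost (0 genes) with normexp, quantile normalization, probes well above background on all 8 arrays, no filter on dim probes and without ischemia replicates 1 and 4; the cause was not tested. With 1 array left out, 0 to 1 genes were called higher and 0 lower, the 1 without ischemia replicate 4. With the replicate number as a block 0 genes were called lower and Dusp1 had an adjusted p of 0.406. Same-numbered arrays deviated from their group means with correlations of 0.084, -0.055, 0.29 and 0.39. The values of replicates 3 and 4 lay above those of all differently numbered arrays, which ran from -0.23 to 0.18. Whether same-numbered arrays share a factor was not tested. The labels give no pairing, so the main fit did not take the numbers to pair the pups.

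The sign turned for Fos with normexp (-0.042) and without ischemia replicates 1 and 4 (-0.20), for Nr4a3 with array weights (0.024) and without those replicates (0.065), and, over all kept probes, for Fosl2 (-0.068) and Mrtfb (-0.061). With 1 array left out it turned in at least 1 case for Fos (-0.064 to 0.23), Egr2 (-0.081 to 0.18), Arc (-0.25 to 0.0022), Nr4a1 (-0.0068 to 0.096), Egr4 (-0.30 to 0.041), Nr4a3 (-0.16 to 0.13), Dusp4 (-0.069 to 0.11), Bhlhe40 (-0.22 to 0.018) and Rasgrp1 (-0.13 to 0.0050). Pairs of members past the adjusted threshold numbered 0 under each of the 4 correlation alternatives, but this says nothing of stability for centring or for 2 arrays left out, where a single pair's smallest adjusted p is 0.0625 and 0.05. Fos, Fosb and Junb lie near background, which limits what a single spot can show.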
